A study of Homo sapiens with 4 samples.

Results

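The 10 long noncoding RNA (lncRNA) genes MALAT1, NEAT1, KCNQ1OT1, NORAD, OIP5-AS1, DANCR, MIR17HG, DLEU2, MIR22HG, and MIRLET7BHG were followed in 293T cells that received a miRNA mimic. They were chosen by name, as nuclear or otherwise abundant lncRNAs and as lncRNAs that carry miRNA genes, and the choice was made with earlier results of these data known. They are 10 of 58243 genes in the tables and 10 of 14262 annotated lncRNA genes, of which 5773 had a value above 0.004 FPKM in the control RNA library. FPKM are fragments per kilobase of gene, scaled to the depth of the library. 293T is an established line of human embryonic kidney cells that carries the SV40 large T antigen. All 4 conditions used this line and RNA taken 48 h after transfection, according to the labels: a control RNA, a miR-1 mimic, a miR-122 mimic, and a miR-124 mimic. The methods of the study state a shorter time, so the time is uncertain. There was 1 library for each condition, so no difference below has a replicate check. All intervals are 95% counting intervals, exact Poisson for a level and exact Clopper-Pearson for a ratio. They cover counting error only and compare libraries, not conditions.

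lncRNAs act as RNA rather than through a protein. MALAT1 is retained in nuclear speckles, bodies rich in splicing factors, and NEAT1 is the RNA scaffold of paraspeckles. KCNQ1OT1 is transcribed from the paternal chromosome and silences neighbouring imprinted genes. NORAD is cytoplasmic and binds Pumilio proteins, which repress mRNAs. OIP5-AS1, also called cyrano, holds a highly complementary site for miR-7, and DANCR is a snoRNA host gene whose spliced transcript is largely cytoplasmic. In the remaining 4 genes the transcript is the precursor of miRNAs, which the Microprocessor cuts out in the nucleus: the miR-17-92 cluster in MIR17HG, miR-15a and miR-16-1 in DLEU2, miR-22 in MIR22HG, and let-7a-3 and let-7b in MIRLET7BHG.

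The depth was 6624306 reads for control RNA, 9452232 for the miR-1 mimic, 5887055 for the miR-122 mimic, and 6465436 for the miR-124 mimic. These are the totals by which the FPKM values were divided, and the whole reads of each gene were recovered from them. One read over 1 kb corresponds to 0.106 to 0.170 FPKM. The 10 lncRNAs together took 0.154% of the reads in the control RNA library and 0.126% to 0.127% in the mimic libraries. Of 7 genes listed as markers of 293T, 7 were above 0.004 in every library, although PAX2 had only 12 to 30 reads. Of 5 markers of other cells, 2 or 3 were above 0.004 in a library, with 32 to 54 reads in all. The liver marker ALB, the blood marker PTPRC, the fibroblast marker COL1A2, and the heart marker MYH6 had at most 3 reads in any library, and the rest of these reads were from RBFOX3. In bulk RNA, fewer cells that express a gene and less RNA per cell cannot be told apart.

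The sequences that decide whether a miRNA can pair with these RNAs are short. A miRNA recognises a target mainly through its seed, bases 2 to 8, shown here in capitals in the 2 mature miRNAs for which RefSeq (GRCh38.p14) gave the sequence.
miR-1-3p: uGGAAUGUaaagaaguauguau
miR-122-5p: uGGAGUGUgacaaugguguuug
The matching word in a target, an 8mer of 7 paired bases followed by an A, reads ACATTCCA where the miRNA is miR-1. For miR-122 it reads ACACTCCA. GTGCCTTA is the word of miR-124. A 7mer lacks either the outer paired base or the A. The longest annotated transcript of each gene was searched on the sense strand for these words.

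MALAT1 holds 2 miR-1 8mers, whose starts are 221 bases apart, and both are printed with their flanks and with the 8mer in capitals. They lie at chr11:65504674-65504703 and chr11:65504895-65504924 on the plus strand of GRCh38, in the single exon of the printed transcript.
MALAT1 upstream site: agtgacaagaaACATTCCAaacaagcaaca
MALAT1 downstream site: aaataaaccaaACATTCCAttttaaatgtg
MALAT1 also holds 1 miR-1 7mer and 2 miR-124 7mers, and no 8mer or 7mer of miR-122. NEAT1 is the one abundant member with an 8mer of every mimic: 2 belong to miR-1, 1 to miR-122, and 1 to miR-124. One miR-1 site, at chr11:65431030-65431059, and the miR-124 site, at chr11:65425727-65425756, are shown as examples of a long nuclear RNA that holds words of all 3 mimics.
NEAT1 miR-1 site: aataacattaaACATTCCAttccctccagc
NEAT1 miR-124 site: gtatgtaaatcGTGCCTTAgaaacacatct
In all, 3 of the 10 lncRNAs had an 8mer of miR-1 (MALAT1, NEAT1, and KCNQ1OT1), 2 had one of miR-122 (NEAT1 and KCNQ1OT1), and 1 had one of miR-124 (NEAT1). Over the 5773 detected lncRNA genes, the share with an 8mer was 3.90% (miR-1), 3.98% (miR-122), and 1.63% (miR-124). Long transcripts hold more words: of 253 lncRNAs with a transcript of at least 5000 bases, 48, 42, and 16 held an 8mer. A match is a description of the sequence and does not show binding.

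Per kilobase, the miR-1 words of MALAT1 stood at 0.288 and those of NEAT1 at 0.308, against 0.143 over all detected lncRNAs. KCNQ1OT1, with a transcript of 91667 bases, held 33 words of the 3 miRNAs in all but only 0.142 of miR-1 per kilobase. NORAD had a single miR-122 7mer in 5401 bases, and OIP5-AS1 had 2 miR-1 7mers and 1 of miR-122. What sets NORAD apart in sequence is the Pumilio motif TGTANATA, searched on the sense strand with overlapping matches counted. NORAD held 15 of these motifs, 2.78 per kilobase, against 0.101 per kilobase over detected lncRNAs, of which 11.8% held any. NEAT1 held 6, KCNQ1OT1 9, OIP5-AS1 1, and the other 6 lncRNAs none. Of the NORAD motifs, 3 are shown, from the minus strand at chr20:36049803-36049832, chr20:36049501-36049530, and chr20:36047971-36048000. Each of the 3 has ctg just before the motif and g just after it, while the rest of the flanks differ more. Most of the 15 motifs lack this pair of flanks, so it belongs to the examples shown and not to the set. The flank of motif B also holds another of the 15 motifs, TGTACATA, in small letters.
NORAD motif A: cctcactactgTGTATATAgttgacaatgc
NORAD motif B: ttacttatctgTGTATATAgtgtacataaa
NORAD motif C: caaccctactgTGTATATAgcggacaaact
The map of seed words and Pumilio motifs shows the crowding of Pumilio motifs along NORAD and the neighbouring pair of miR-1 8mers in MALAT1.

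**Figure D1:**
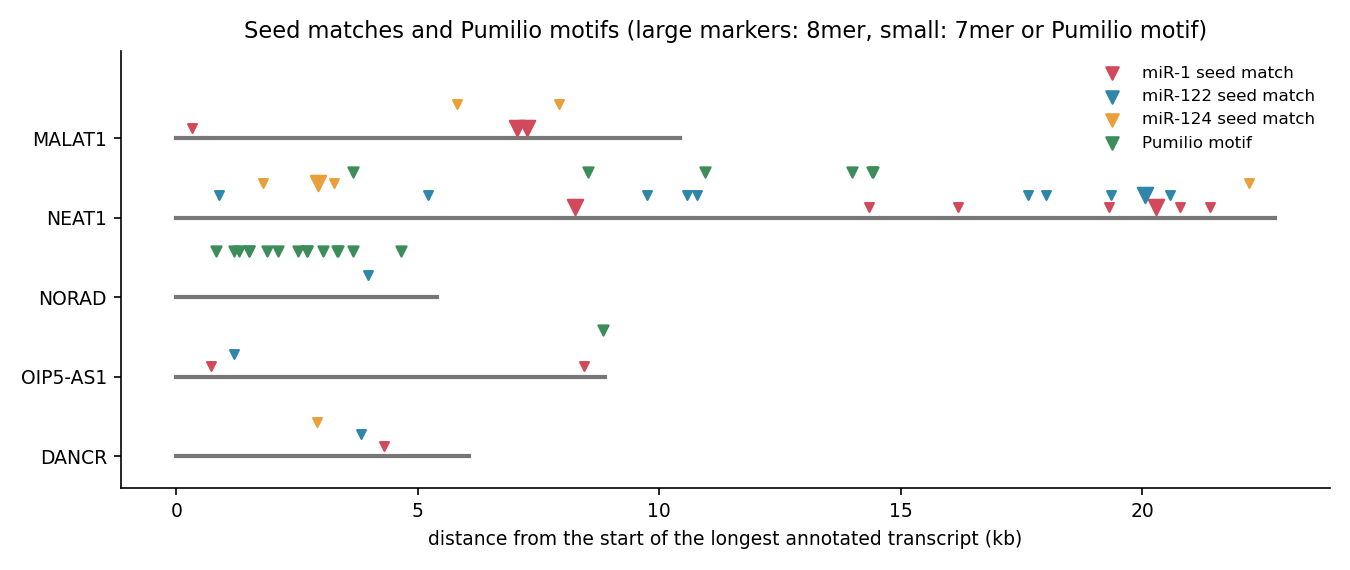
Positions of miRNA seed matches and Pumilio motifs along the longest annotated transcript of 5 lncRNAs, in kilobases from its start. Large triangles are 8mers and small triangles are 7mers or Pumilio motifs. NORAD carries 15 Pumilio motifs and MALAT1 2 adjacent miR-1 8mers.

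OIP5-AS1 had 3 seed matches of miR-7-5p, a miRNA that was not transfected here. One of them extended to 23 of the 24 bases of miR-7 when gaps were allowed, against 14 for the next best. It lies at chr15:41300572-41300601 on the plus strand, and the capitals mark the seed of the miRNA and its match in the lncRNA.
miR-7-5p: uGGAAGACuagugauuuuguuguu
OIP5-AS1 site: agaacaacaaaatcaccaatGTCTTCCatt

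The host lncRNAs are shown by the mature miRNAs they yield, grouped by shared seed, since the tables hold no value for a mature miRNA. In MIR17HG, miR-17-5p and miR-20a-5p share AAAGUGC and the miR-19 pair shares GUGCAAA, while miR-18a-5p and miR-92a-3p each have their own seed.
miR-17-5p: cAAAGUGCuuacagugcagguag
miR-20a-5p: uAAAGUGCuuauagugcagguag
miR-18a-5p: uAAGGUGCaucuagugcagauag
miR-19a-3p: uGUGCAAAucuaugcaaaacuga
miR-19b-3p: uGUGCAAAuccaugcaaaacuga
miR-92a-3p: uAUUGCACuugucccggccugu
DLEU2 carries miR-15a and miR-16-1, which share AGCAGCA. MIR22HG carries miR-22. MIRLET7BHG carries let-7a and let-7b, which share GAGGUAG.
miR-15a-5p: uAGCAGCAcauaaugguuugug
miR-16-5p: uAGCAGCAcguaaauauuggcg
miR-22-3p: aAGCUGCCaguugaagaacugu
let-7a-5p: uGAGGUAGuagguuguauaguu
let-7b-5p: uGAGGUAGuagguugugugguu
None of these seeds is that of a transfected mimic. The small miRNA genes inside the hosts, each counted as a gene of its own, were listed at 0 in all 4 libraries for MIR17, MIR18A, MIR19A, MIR20A, MIR19B1, MIR92A1, MIR15A, MIR16-1, MIR22, MIRLET7A3, and MIRLET7B. MIR612 and MIR4763 were also at 0, and MIR4449, MIR3613, and MIR3619 had at most 1 read in any library. The values below are those of the host genes, which for some of them include reads that an overlapping gene could have given.

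All 10 lncRNAs were above 0.004 FPKM in all 4 libraries, and 8 had at least 200 reads in all. In the control RNA library, NORAD was highest at 63.8 FPKM, followed by MALAT1 at 59.3 and NEAT1 at 21.8. DANCR at 4.03 and OIP5-AS1 at 4.0 came next, then MIR17HG at 1.41 and MIR22HG at 0.399. DLEU2 at 0.151, KCNQ1OT1 at 0.143, and MIRLET7BHG at 0.0201 were lowest. The counting intervals overlapped for 3 neighbouring pairs in this order, NORAD with MALAT1, DANCR with OIP5-AS1, and DLEU2 with KCNQ1OT1. Among all genes, NORAD was at place 322 and MALAT1 at place 343 from the top.

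The order depends on the length behind the values. For most genes the FPKM length is the whole gene span, introns included, so spliced genes with long introns stand low. Per kilobase of annotated exons, scaled to depth in the same way, NORAD (63.1), MALAT1 (49.8), and NEAT1 (21.8) kept the top places, all with little or no intron. DLEU2, which spans 169051 bases with 12793 bases of exons, stood at 1.69 and passed MIR17HG (0.738) and MIR22HG (0.729). OIP5-AS1 (4.60) passed DANCR (3.14), and MIRLET7BHG (0.187) passed KCNQ1OT1 (0.142), which then was lowest. This scale assigns all reads of a gene to its exons, although the sources do not say whether reads in introns were counted. Any such reads would raise genes with long introns most, so the places of DLEU2, OIP5-AS1, and MIRLET7BHG on it are uncertain. Introns are not the only source of these shifts. The lengths recovered for MALAT1, DANCR, and MIR17HG were 8754, 7947, and 6759 bases, shorter than their annotated exons of 10434, 10179, and 12894 bases. Their lower values on this scale come from that mismatch of gene models, so the places of DANCR and MIR17HG rest partly on it. A ratio of 1 gene between 2 libraries is not touched by its length. The plot of levels by library shows MALAT1 as the abundant member whose 4 points are spread most.

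**Figure D2:**
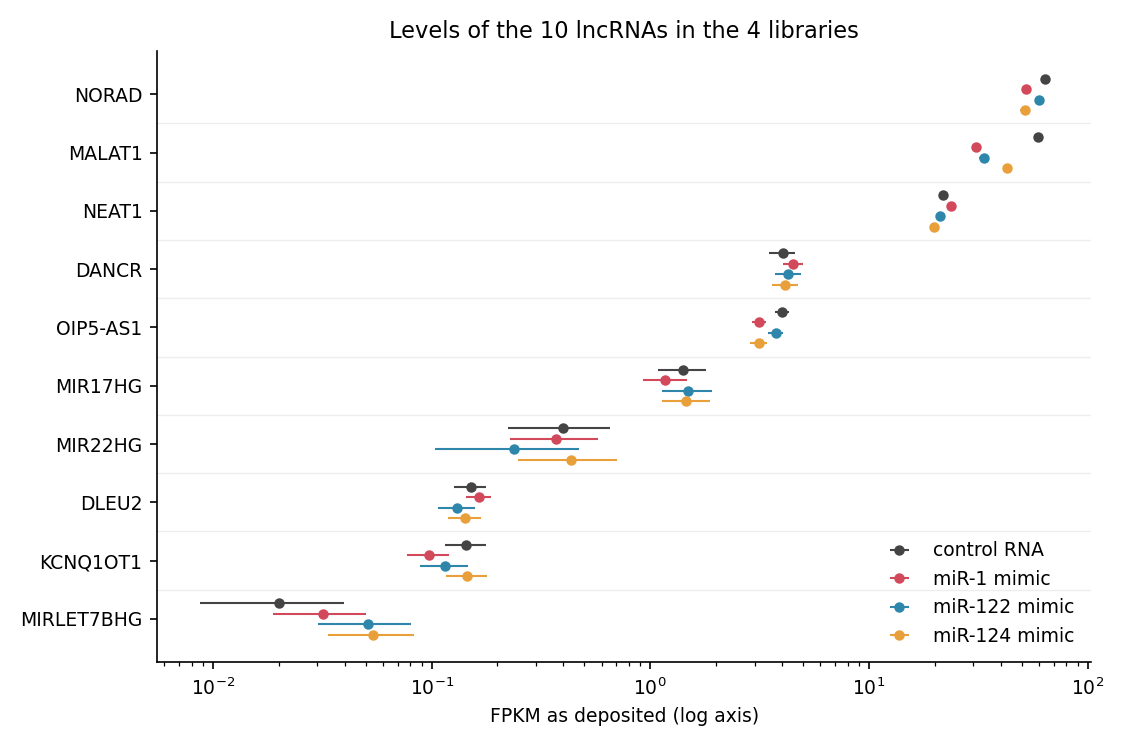
FPKM of the 10 lncRNAs in each of the 4 libraries on a log axis, ordered by the control RNA library. Points are the deposited values and bars are 95% Poisson counting intervals, which are narrower than the points for NORAD, MALAT1, and NEAT1. MALAT1 runs from 30.9 to 59.3 and MIRLET7BHG from 0.0201 to 0.0541.

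MALAT1 (ENSG00000251562, chr11:65497640-65508073, plus strand) differed most among the well covered members. It stood at 59.3 FPKM (3441 reads) in the control, 30.9 (2559 reads) with miR-1, 33.6 (1731 reads) with miR-122, and 42.7 (2416 reads) with miR-124. All 3 mimic libraries were below the control RNA library, and no counting interval of a mimic library reached that of the control, 57.4 to 61.4. The ratio to control was 0.521 with miR-1 (interval 0.495 to 0.549), 0.566 with miR-122 (0.534 to 0.600), and 0.719 with miR-124 (0.683 to 0.758). On the log2 scale these are -0.94, -0.82, and -0.48. The mimic libraries also differed from each other beyond counting error: miR-1 stood at 0.921 of miR-122 (0.866 to 0.979), and miR-122 at 0.787 of miR-124 (0.739 to 0.837). The lowest level was thus found with the mimic that has 8mers in MALAT1, the next with the mimic that has no match there, and the one nearest to control with the mimic that has 2 7mers.

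Because the 3 comparisons share 1 control library, a high value in that library would lower all 3 ratios. Set against the mean of the remaining 2 mimics instead, MALAT1 stood at 0.811 with miR-1, 0.913 with miR-122, and 1.32 in the miR-124 library. The difference of miR-124 turned from lower to higher and none was past 1.5-fold. Within a library, where scaling cancels, MALAT1 was 2.72 times NEAT1 in the control, 1.30 times with miR-1, 1.59 times with miR-122, and 2.16 times with miR-124. Against NORAD these ratios were 0.930, 0.588, 0.558, and 0.827. NEAT1 ends 52100 bases before MALAT1 begins, on the same strand, and FRMD8, the nearest expressed protein-coding gene on the lower-coordinate side of the pair, stood at 0.786, 0.978, and 1.01 of control, in the order miR-1, miR-122, miR-124.

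Few well covered genes were as low. Of 6468 genes with at least 1000 reads over the 4 libraries, 11 had a lower ratio than MALAT1 with miR-1, 6 with miR-122, and 175 in the miR-124 library. Of 221 lncRNA genes among them, the numbers were 0, 0, and 6. Genes of this coverage were 1.5-fold or more lower in 2.16%, 0.758%, and 0.819% of cases. The 3 genes whose ratios were most like those of MALAT1, by the distance over the 3 log2 ratios, were EPPK1 (distance 0.0922), a large cytoskeletal protein, HIPK3 (0.178), a protein kinase, and PIK3C2A (0.229), a lipid kinase. EPPK1 stood at 0.491, 0.567, and 0.703 of control. The plot of ratios against reads places MALAT1 below the other lncRNAs of its coverage with miR-1 and miR-122.

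**Figure D3:**
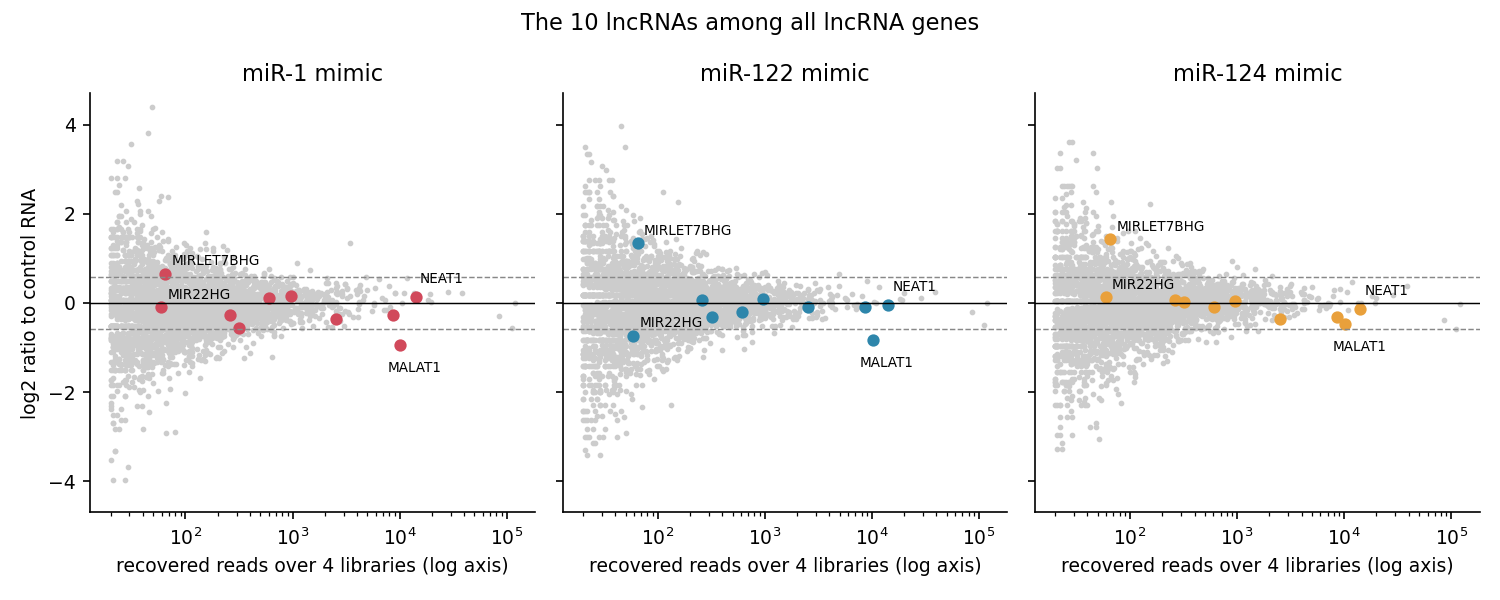
log2 ratio to the control RNA library against the reads over the 4 libraries (log axis) for 3431 lncRNA genes with at least 20 reads and a ratio in all 3 comparisons, in grey, with the 10 members in colour, of which 4 are named. Dashed lines mark 1.5-fold. MALAT1, with 10147 reads, lies at -0.94, -0.82, and -0.48, and the scatter widens as reads fall.

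The 3′ end of MALAT1 is cleaved from a tRNA-like structure and protected by a helix instead of a poly(A) tail, and the library kit named in the labels is one for mRNA. Values that bear on this are few. Of 6 RNAs without a poly(A) tail, RN7SL2, the RNA of the signal recognition particle, was above 0, and the other 5 were listed at 0. RN7SL2 stood at 1659.5, 2573, 2293, and 2694 FPKM in the control, miR-1, miR-122, and miR-124 libraries, which is 1.55, 1.38, and 1.62 times control. RN7SL1 was among the 5 at 0, so how reads were assigned among these genes is not known, and RN7SL2 is 1 gene. Mitochondrially encoded mRNAs took 3.49%, 3.40%, 3.67%, and 3.39% of the reads. The part of poly(A) selection in the MALAT1 difference was not tested. The log2 ratios also moved with base composition across genes of at least 200 reads, with Pearson's r to exonic GC content of 0.218, 0.334, and 0.638, and of -0.295, -0.239, and -0.266 to log exonic length. The genes in these correlations share the libraries and are not independent. MALAT1 has 42.0% GC. With a cubic trend in GC content, length, span, and reads subtracted, and under 6 other alternatives that keep the control as reference, MALAT1 lay between -0.95 and -0.86 with miR-1, between -0.82 and -0.78 with miR-122, and between -0.48 and -0.41 with miR-124. The filters on mean level and on reads are among these alternatives and could not change the MALAT1 ratios.

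Proteins that meet MALAT1 in the speckle were measured as mRNA. SON and SRRM2, the core scaffold proteins of speckles, and SRRM1, a splicing coactivator, were lower than control with miR-1 and miR-122, and METTL16, which binds the MALAT1 helix, was not. SON went from 6.39 FPKM in the control to 5.14, 5.16, and 4.86, SRRM2 from 45.1 to 36.5, 37.4, and 44.3, and SRRM1 from 3.18 to 2.52, 2.64, and 2.92. Their ratios lay between 0.761 and 0.984. METTL16 stood at 1.03, 1.01, and 0.932 of control, with intervals that held 1. The interval lay below 1 for 3 of the 4 with miR-1, 3 with miR-122, and 1 in the miR-124 library, and none of the 4 was past 1.5-fold. Of all genes with at least 200 reads, 4.90%, 2.34%, and 3.10% were 1.5-fold or more lower and 0.945%, 1.33%, and 1.87% higher. Among the same genes, the interval lay below 1 in 24.7% with miR-1, 16.4% with miR-122, and 22.0% in the miR-124 library. The median log2 ratio of the 4 was -0.31, -0.27, and -0.11, and that of all detected genes -0.08, -0.01, and -0.03.

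NEAT1 (ENSG00000245532, chr11:65422774-65445540, plus strand) differed little. It stood at 21.8 FPKM (3293 reads) in the control, 23.8 (5132 reads) with miR-1, 21.1 (2830 reads) with miR-122, and 19.8 (2914 reads) with miR-124. The miR-1 library was highest and the miR-124 library lowest, 1.20 times apart. The ratio to control was 1.09 with miR-1 (1.05 to 1.14), 0.967 with miR-122 (0.919 to 1.02), and 0.907 with miR-124 (0.862 to 0.953). With the miR-1 mimic, which has 2 8mers in NEAT1, the level was above control by more than counting error. With the miR-124 mimic, which has 1, it was below. The miR-122 mimic has 1 8mer and the most words per kilobase there (0.440, against 0.308 and 0.176 for miR-1 and miR-124), and its interval held 1. NEAT1 has a short polyadenylated isoform and a long one without a tail, which the single gene value cannot separate. The gene most like it was GHITM, a mitochondrial membrane protein (distance 0.0158).

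The 12 proteins of the paraspeckle list, which assemble on NEAT1, were all detected, and none was 1.5-fold from control in any comparison. HNRNPK stood at 56.3 FPKM in the control and at 0.898, 0.988, and 0.891 of it with miR-1, miR-122, and miR-124. The core pair NONO and SFPQ stood at 0.905 and 0.896 with miR-1, at 0.922 and 0.972 with miR-122, and at 0.950 and 1.01 with miR-124. Of the 12, 8 were lower and 4 higher with miR-1 and miR-122, and 7 lower and 5 higher with miR-124. Of all detected genes, 57.3%, 51.3%, and 52.1% were lower. All 12 had at least 200 reads, a coverage at which few genes were past 1.5-fold, as given for the speckle proteins. Their median log2 ratios were -0.07, -0.05, and -0.04.

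KCNQ1OT1 (ENSG00000269821, chr11:2597308-2700003, minus strand) had few reads for its length: 87 in the control, 84 with miR-1, 62 with miR-122, and 86 in the miR-124 library. These correspond to 0.143, 0.0969, 0.115, and 0.145 FPKM. The miR-1 library was lowest and the control and miR-124 libraries were alike. The ratio was 0.677 with miR-1 (0.495 to 0.924), 0.802 with miR-122 (0.569 to 1.12), and 1.01 with miR-124 (0.743 to 1.38). KCNQ1OT1 lies within KCNQ1 on the other strand, and the counting is not stated to use strand, so reads of the pair cannot be told apart. KCNQ1 itself had 85, 137, 79, and 101 reads.

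Of the 5 genes of the imprinted domain that KCNQ1OT1 controls, 4 were higher and 1 lower in each comparison, and 2 were past 1.5-fold, both higher with miR-124, as were 10.7% of all detected genes and 1.87% of those with at least 200 reads. These were CDKN1C, a cyclin-dependent kinase inhibitor, and PHLDA2, a growth restraint of the placenta. CDKN1C stood at 5.38 FPKM in the control and at 7.61, 8.02, and 10.1 with miR-1, miR-122, and miR-124. Its ratio was 1.42 (1.10 to 1.83), 1.49 (1.13 to 1.97), and 1.89 (1.46 to 2.45), so all mimic libraries were above the control beyond counting error. PHLDA2 stood at 1.29, 1.03, and 1.58 of control, and its interval lay above 1 with miR-124. NAP1L4 stood at 1.11, 0.954, and 0.959. The median log2 ratio of the 5 was 0.18, 0.06, and 0.50. The plot of partner genes shows this group to the right of the others with miR-124. In that comparison the log2 ratios across genes moved with exonic GC content (Pearson's r 0.638, as given for MALAT1). The part of base composition in the ratios of this group was not tested.

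**Figure D4:**
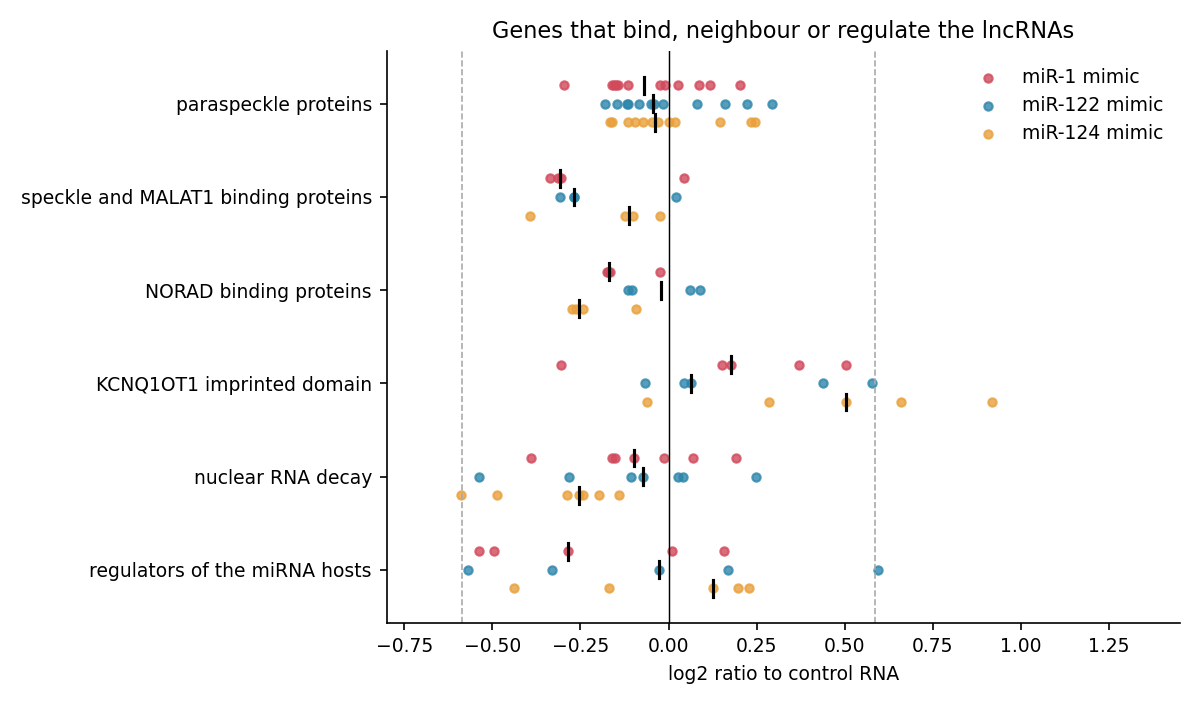
log2 ratio to the control RNA library for genes that bind, neighbour, or regulate the lncRNAs. Each point is a gene, colours are the 3 mimics, black bars are medians, and dashed lines mark 1.5-fold. The speckle group lies mostly below 0, with medians of -0.31, -0.27, and -0.11, and the imprinted group has a median of 0.50 with miR-124.

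NORAD (ENSG00000260032, chr20:36045618-36051018, minus strand) was lower with miR-1 and miR-124. It stood at 63.8 FPKM (2257 reads) in the control, 52.6 (2652 reads) with miR-1, 60.2 (1891 reads) with miR-122, and 51.6 (1781 reads) with miR-124. The control and miR-122 libraries formed the upper pair and the others the lower. The ratio was 0.823 with miR-1 (0.778 to 0.871), 0.943 with miR-122 (0.886 to 1.00), and 0.808 with miR-124 (0.759 to 0.861). NORAD holds no seed word of miR-1 or miR-124 and 1 word of miR-122. The miR-1 and miR-124 libraries differed by less than counting error (ratio 1.02, 0.959 to 1.08), while miR-122 was 1.17 times miR-124 (1.09 to 1.24).

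The mRNAs of 4 proteins that bind NORAD all stood within 1.5-fold of control. PUM2, a Pumilio protein, stood at 0.891, 1.04, and 0.834 of control. RBMX, an RNA-binding protein of the nucleus, stood at 0.885, 0.930, and 0.828, and KHDRBS1, also called SAM68, at 0.984, 1.06, and 0.937. Of the 4, 4 were lower with miR-1, 2 with miR-122, and 4 in the miR-124 library, where 57.3%, 51.3%, and 52.1% of all detected genes were lower. SCAND1, the nearest expressed protein-coding gene on the lower-coordinate side of NORAD, was above control in all 3, at 1.28, 1.5, and 1.32 times. AAR2, on the higher-coordinate side, stood at 1.02, 1.11, and 1.00, with intervals that held 1.

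OIP5-AS1 (ENSG00000247556, chr15:41283958-41322392, plus strand) had nearly the ratios of NORAD. It stood at 4.0 FPKM (682 reads) in the control, 3.14 (764 reads) with miR-1, 3.75 (568 reads) with miR-122, and 3.13 (521 reads) with miR-124. The ratio was 0.785 with miR-1 (0.707 to 0.872), 0.937 with miR-122 (0.837 to 1.05), and 0.783 with miR-124 (0.697 to 0.879). The miR-1 and miR-124 libraries were alike (ratio 1.00, 0.896 to 1.12) and below the others. Its span overlaps OIP5 on the other strand and NUSAP1 on the same strand. OIP5 stood at 1.26, 1.02, and 1.08 of control and NUSAP1, a spindle protein, at 1.03, 1.10, and 0.877. Over the genes searched, PCNX4 was most like OIP5-AS1 (distance 0.0161).

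DANCR (ENSG00000226950, chr4:52712325-52723623, plus strand) was the steadiest of the 10. It stood at 4.03 FPKM (212 reads) in the control, 4.50 (338 reads) with miR-1, 4.27 (200 reads) with miR-122, and 4.15 (213 reads) with miR-124. The highest and lowest libraries were 1.12 times apart and all intervals overlapped. The ratios of 1.12 (0.938 to 1.33), 1.06 (0.871 to 1.29), and 1.03 (0.847 to 1.25) had intervals that held 1, which leaves room for a difference of up to 1.33-fold.

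The miRNA hosts were low, and their intervals were wide. MIR17HG (ENSG00000215417, chr13:91347686-91397592, plus strand) stood at 1.41 FPKM (63 reads) in the control, 1.17 (75 reads) with miR-1, 1.48 (59 reads) with miR-122, and 1.46 (64 reads) with miR-124. The miR-1 library was lowest, at a ratio of 0.834 (0.589 to 1.19), and the ratios of 1.05 and 1.04 with miR-122 and miR-124 also had intervals that held 1. The length behind the MIR17HG values, 6759 bases, is far below its annotated span of 49907, so its reads could be larger by a whole factor and the intervals narrower. DLEU2 (ENSG00000231607, chr13:49956670-50125720, minus strand) stood at 0.151 FPKM (143 reads), 0.164 (222 reads), 0.131 (110 reads), and 0.142 (131 reads) in the same order. Its ratios were 1.09 (0.878 to 1.35), 0.866 (0.669 to 1.12), and 0.939 (0.735 to 1.20), and no difference was beyond counting error. TRIM13, a ubiquitin ligase gene that overlaps DLEU2 on the other strand, stood at 0.811, 0.715, and 0.886 of control. DLEU1, a lncRNA that also overlaps it on the other strand, had 57, 57, 29, and 32 reads and stood at 0.701, 0.572, and 0.575.

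MIR22HG (ENSG00000186594, chr17:1711447-1717174, minus strand) had 15 reads in the control, 20 with miR-1, 8 with miR-122, and 16 in the miR-124 library, or 0.399, 0.372, 0.239, and 0.436 FPKM. The miR-122 library was lowest, at 0.600 of control, but the interval ran from 0.220 to 1.51. A change of MIR22HG was therefore not detectable at this depth. WDR81, which overlaps it on the other strand, stood at 0.898, 1.12, and 1.28 of control. MIRLET7BHG (ENSG00000197182, chr22:46053869-46113928, plus strand) had 8, 18, 18, and 21 reads, or 0.0201, 0.0317, 0.0509, and 0.0541 FPKM. All 3 mimic libraries were above the control. The ratio was 1.58 with miR-1 (0.652 to 4.19), 2.53 with miR-122 (1.05 to 6.73), and 2.69 with miR-124 (1.14 to 7.02). The 3 ratios rest on the same 8 control reads. PRR34, which lies within the span of MIRLET7BHG on the other strand, stood at 1.40, 1.63, and 1.16 of control, and reads of the pair cannot be told apart without strand. PRR34-AS1, which lies within the span on the same strand, had 13, 14, 11, and 9 reads and stood at 0.755, 0.952, and 0.709. The part of these genes in the MIRLET7BHG values was not tested. Its exons have 63.3% GC, and it had too few reads to be included in the cubic trend in GC content. The part of base composition in its ratios was therefore not tested either.

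The genes that act on these hosts gave a mixed picture. MYC and E2F1, which activate transcription of MIR17HG, stood at 1.01, 0.981, and 1.09 and at 1.11, 1.12, and 1.17 of control. MYCN, also an activator, stood at 0.821, 1.51, and 1.15, and was 1.5-fold higher with miR-122 on 76 control reads, as were 1.33% of genes with at least 200 reads. E2F3 stood at 0.689 (0.607 to 0.783), 0.795 (0.691 to 0.914), and 0.889 (0.779 to 1.01). LIN28B, which blocks let-7 maturation and was picked out after its values were seen, stood at 0.709 (0.619 to 0.813), 0.674 (0.574 to 0.788), and 0.738 (0.636 to 0.857), with all intervals below 1, while LIN28A was listed at 0 in 3 libraries. The Microprocessor subunits DROSHA and DGCR8 stood between 0.879 and 1.08 of control in all comparisons. Among 7 genes of nuclear RNA decay, 5, 4, and 7 were lower with miR-1, miR-122, and miR-124, against 57.3%, 51.3%, and 52.1% of all detected genes. The interval lay below 1 for 1, 2, and 6 of the 7, and above 1 for 0 in each comparison. All 7 had at least 200 reads, and of all genes so covered the interval lay below 1 in 24.7%, 16.4%, and 22.0%. EXOSC10, the nuclear exosome nuclease, stood at 0.991, 1.02, and 0.906, DIS3, another exosome nuclease, at 1.05, 1.03, and 0.871, and RBM7, of the NEXT complex, at 1.14, 1.19, and 0.664. RBM7 was the 1 gene of the 7 past 1.5-fold, with miR-124, where 3.10% of genes with at least 200 reads were 1.5-fold or more lower.

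Read together, 1 of the 10 lncRNAs was 1.5-fold or more lower with miR-1 (MALAT1), where 13.6% of 22558 detected genes were, and 1 was higher (MIRLET7BHG), where 8.37% were. With miR-122, 2 were lower (MALAT1 and MIR22HG) against 11.5% of 21865 genes, and 1 was higher (MIRLET7BHG) against 10.1%. With miR-124, 0 were lower against 11.7% of 22006 genes, and 1 was higher (MIRLET7BHG) against 10.7%. These counts are near those shares, and genes with few reads weigh in both. By counting intervals, 4 of the 10 lay below 1 with miR-1 (MALAT1, KCNQ1OT1, NORAD, and OIP5-AS1), against 16.1% of all detected genes, and NEAT1 lay above 1, against 9.63%. With miR-122, MALAT1 lay below 1 against 10.7%, and MIRLET7BHG above 1 against 8.76%. With miR-124, 4 lay below 1 (MALAT1, NEAT1, NORAD, and OIP5-AS1) against 13.9%, and MIRLET7BHG above 1 against 10.5%. Intervals narrow with reads, and the shares are larger among better covered genes. Of the 8 with at least 200 reads, 4, 1, and 4 lay below 1, against 24.7%, 16.4%, and 22.0% of 12591, 12592, and 12591 genes, and 1, 0, and 0 lay above 1, against 15.5%, 13.2%, and 16.4%. Of lncRNA genes alone, an interval below 1 was found in 7.77%, 5.10%, and 5.26% of those detected and in 15.6%, 10.2%, and 10.9% of those with at least 200 reads. The median log2 ratio of the 10 was -0.18, -0.09, and -0.04, with 6, 7, and 5 of them lower, and that of all detected lncRNAs was -0.10, 0.03, and 0.04. The plot of ratios shows the narrow intervals of the 5 abundant lncRNAs against the wide ones of MIR22HG and MIRLET7BHG.

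**Figure D5:**
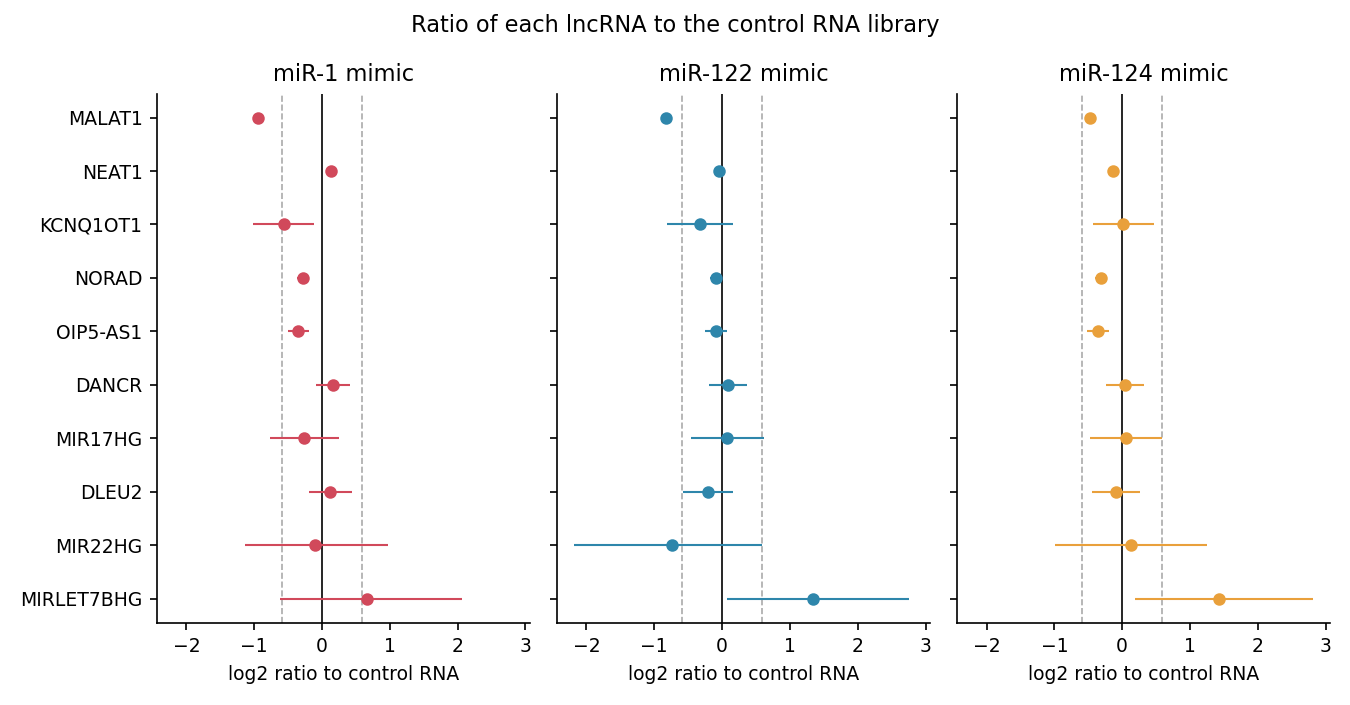
log2 ratio of each of the 10 lncRNAs to the control RNA library, 1 panel for each mimic. Bars are 95% counting intervals, the solid line is no difference, and dashed lines mark 1.5-fold. MALAT1 lies left of 0 in all panels, at -0.94, -0.82, and -0.48, and MIRLET7BHG right of 0 at 0.66, 1.34, and 1.43.

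Other lncRNAs served as the comparison for the 10. Of 20 other well known lncRNAs listed, 19 were found and 18 detected, from 0.0251 FPKM (LINC-PINT) to 26.3 FPKM (TMPO-AS1) in the control, so not all of them were abundant here. None of them was 1.5-fold lower in any comparison, and 1 was higher in each, LINC-PINT with miR-1 and HOTAIRM1 with each of the others. HOTAIRM1 had only 16 to 27 reads in a library, and its intervals held 1 with miR-122 (0.902 to 3.52) and miR-124 (0.899 to 3.43). The other 17 had at least 200 reads, and of these 0 were lower in any comparison and 1, 0, and 0 higher. Of all lncRNA genes so covered, 4.24%, 3.87%, and 4.88% were 1.5-fold or more lower and 3.50%, 4.79%, and 4.42% higher. TMPO-AS1 stood at 0.688 of control with miR-1, 0.921 with miR-122, and 0.769 in the miR-124 library, and TUG1, a nuclear lncRNA, at 0.906, 0.961, and 0.776. Both had, as NORAD did, the ratio nearest to 1 with miR-122. EPB41L4A-AS1 stood at 1.16, 1.18, and 1.05.

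Across the genome, 193 lncRNA genes carry a miRNA gene on the same strand, and 6 of the 10 are among them, NEAT1 (with MIR612) and DANCR (with MIR4449) included. Without those 6, the hosts detected in both libraries numbered 68, 68, and 67, with median log2 ratios of -0.10, -0.19, and -0.13. Of them, 15, 14, and 15 were 1.5-fold or more lower and 10, 5, and 5 higher, where 21.7%, 20.5%, and 21.1% of all detected lncRNAs were lower and 15.0%, 18.9%, and 17.7% higher. The shares lower are near those of all detected lncRNAs, and so is the share higher with miR-1. With miR-122 and miR-124 a smaller share of hosts was higher than of all detected lncRNAs. The median log2 ratios of all detected lncRNAs were -0.10, 0.03, and 0.04. Most hosts had few reads. Among the 24 of these hosts with at least 200 reads, 1 was past 1.5-fold in each comparison: LINC-PINT higher with miR-1, MIR210HG higher with miR-122, and LINC00472 lower with miR-124. The shares over all lncRNA genes so covered are those given for the other well known lncRNAs. Of 5 host genes of the transfected miRNAs themselves, MIR133A1HG had 3 reads with miR-1 and MIR1-1HG had 1 read with miR-124, and all remaining values were 0.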

How the data were processed

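RNA-seq libraries of 293T cells (mRNA-seq kit, single-end reads) were base-called with CASAVA 1.8 and aligned to GRCh38 with HISAT2 2.0.0, per the submitters' processing notes. The authors deposited 1 FPKM value per gene and library. The counting program, its annotation, and its use of strand are not given in the sources used here. Values of low genes are whole multiples of the value of 1 read. The divisor of each library and the reads of each gene were recovered from this, with the gene span of GENCODE release 44 as length where it gave whole reads and otherwise the smallest length that did (99.2% of 32358 genes above 0 had one). Recovered reads sum to 100.15% to 100.27% of the divisors. The length so found was the span for 18698 genes, and the smallest one for 2585, among them MALAT1, OIP5-AS1, KCNQ1OT1, DANCR, MIR17HG, and DLEU2, whose reads could be larger by a whole factor.

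Ratios to the control RNA library used FPKM without a pseudocount for genes above 0.004 in both. A gene was called past 1.5-fold, and no p-value was calculated. The labels do not say whether libraries came from separate cultures. The steps were tested on simulated data in which gene lengths stayed near the annotated span. The larger mismatches of length found for several members were not covered by that test. Named genes were the 10 members, their neighbours with a mean FPKM of at least 1, their overlapping genes, those with the nearest ratios among genes with at least 1000 reads, and up to 4 of each gene list. Some genes that this rule names are not reported here. Members and lists were chosen with earlier results of these data known. Alternatives were pseudocounts of 1 and 0.1, a mean of at least 1, the other 2 mimics as reference, centring on the median, TMM, a trend adjustment, exonic lengths, and, chosen after seeing the data, at least 200 reads. Of the 20 lncRNAs in the list of other well known ones, 1 was not matched by symbol. Computations ran in Python 3.11.15 with scipy 1.17.1 for the intervals, numpy 2.4.6, and pandas 2.3.3, and plots were drawn with matplotlib 3.10.9.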

Additional observations from a re-analysis of the deposited data

How the results depend on the processing

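No paired analysis was possible because there is only 1 library for every condition, and for the same reason no replicate could be left out. Of 216 ratios recomputed for single lncRNAs under the alternatives, 197 stayed within the counting interval of the reported ratio. These include 18 under a mean of at least 1 and 24 under the minimum of 200 reads, which could not move. Both settings only leave lncRNAs out. Of the 216, 10 changed sign, 7 with the mean of the remaining 2 mimics as reference and 3 with the trend adjustment. One of the 10 had been past 1.5-fold: MIRLET7BHG with miR-1 was at -0.73 (log2) against the remaining 2 mimics. With that reference MALAT1 was at -0.30, -0.13, and 0.40, while NORAD and OIP5-AS1 with miR-122 were at 0.21 and 0.26, and MIR22HG with miR-1 at 0.14. The number of lncRNAs 1.5-fold or more higher went from 1 to 0 for each mimic under a pseudocount of 1, a pseudocount of 0.1, a mean of at least 1, the other mimics as reference, the trend adjustment, and the minimum of 200 reads chosen after seeing the data. Under the same settings the number lower with miR-122 went from 2 to 1. A mean of at least 1, the trend adjustment, and the minimum of 200 reads left out MIRLET7BHG and MIR22HG. Under those settings the fall of both counts was therefore fixed by the filter and does not show a smaller ratio. The number lower with miR-1 stayed at 1 and with miR-124 at 0, but with the other mimics as reference the 1 lncRNA was MIRLET7BHG for miR-1 and MIR22HG for miR-122, in place of MALAT1. By exonic length, 7 of the 10 took another place in the order of levels. Centring on the median of detected genes raised log2 ratios by 0.08, 0.01, and 0.03 and TMM by 0.08, 0.02, and 0.05. Depth limits MIR22HG, MIRLET7BHG, KCNQ1OT1, and MIR17HG, whose intervals leave room for changes past 1.5-fold.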
